A study of Mus musculus with 2 samples.

Results

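A group of 62 protein-coding genes was transcribed in a mouse T-ALL, an acute leukemia of immature T cells, and was nearly lost from the same leukemia after its Ikaros protein was allowed to return. The members were chosen by their measured levels. Each had at least 5 CPM (each count scaled to a library total of 1e6) in the untreated library and a level there at least 8 times that of the doxycycline (Dox) library, a Dox level of 0 being allowed. The count table held 27179 genes. The rule leaves out 10 genes by name, and names of Gm plus digits or ending in Rik. Without these, 9184 protein-coding genes with a symbol reached 5 CPM in the untreated library. Of the 9184, 62 (0.675%) also met the ratio. In the other direction, with the same names left out, 90 of 9184 genes (0.98%) with at least 5 CPM in the Dox library were at least 8-fold higher there. A further 11 genes, not among the 9184 at 5 CPM or more untreated, met both criteria and were set aside by name. They were Rag1, Il2ra, Myc, Notch3, Cdk6, Srm, Hk2, Dock1, Ephb4 and Sema6a, which the rule leaves out by name, and 1 gene with a Gm number for a name. The same values chose the members and are given below, so the size of the difference is a description of these genes and no test of it is made.

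The leukemia, ALL211, is a primary tumour carrying Vav-tTA and TRE-GFP-shIkaros: a transactivator made in blood cells under a Vav promoter drives GFP and a linked hairpin that silences Ikaros, and Dox shuts off both. Cells came from the spleens of leukemic recipient mice and were isolated by FACS. The Dox group (3 days of Dox, sorted as GFPmid) and the untreated group (sorted as GFPhigh) had 1 library each. The series text names 2 mice per condition, and the sources used here do not say whether RNA of both was pooled. The leukemia cells are progeny of 1 leukemia and carry the hairpin construct, and mice given Dox without the hairpin were not analysed here. Markers of other cell types were also detected in the libraries and are given below.

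Ikaros, encoded by Ikzf1, is a DNA-binding zinc finger protein of lymphocytes and their precursors that recruits repressor complexes to many of its target genes, and its loss is a common event in lymphoid leukemia. Its DNA site shares the core TGGGAA with the site of RBPJ, the DNA-binding partner of Notch, a receptor pathway that drives much T-ALL. Many of the genes described below are known from brain, epithelium or vessels rather than from T cells.

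The Dox library held 16484613 counts and the untreated library 16960042. Ikzf1 had 20131 counts (1221 CPM) in the Dox library and 2057 counts (121 CPM) in the untreated library, 10.1-fold higher (interval 9.62 to 10.5), the direction that the labels give. With 1 library per condition there is no replicate check and no p-value. Intervals are exact 95% intervals of the ratio of counts, cover counting error only and treat reads as independent. Treatment, sorting gate and mouse differ together between the libraries and cannot be told apart, and in bulk RNA fewer cells that express a gene and less RNA per cell cannot be told apart either.

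**Figure D1:**
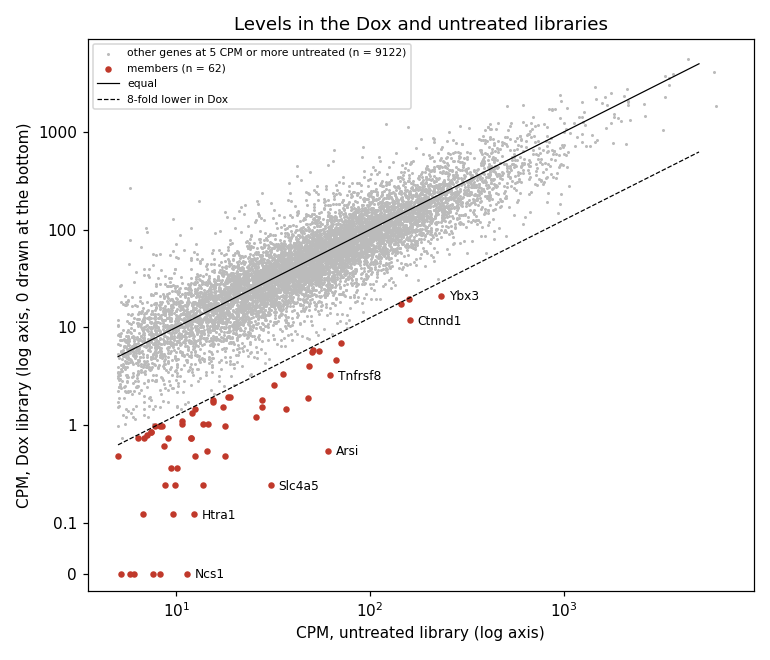
Level in the Dox library (vertical) against level in the untreated library (horizontal), in CPM on log axes, for the 62 members in red and 9122 other genes at 5 CPM or more untreated in grey. The lines mark equal levels and an 8-fold lower Dox level, the threshold that chose the members. The 6 members with 0 Dox counts lie at the bottom.

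The member promoters give the sequence context of the group. RefSeq promoter windows (GRCm38.p6) were found for 46 of the 62 members. That is 74.2%, below the 80% set for a comparison, so the check of motif shares is void. Among the 46, 13 held TGGGAA on either strand within 250 bases before at least 1 of their 63 listed starts. Per window, 21.6% of the 32851 windows of all genes held it; the members are counted per gene, so these values are not comparable. Windows are shown for the 4 of these 13 with the lowest remaining share of transcript, and for Ncs1 and Fam163b, the members with the highest untreated counts among those that had 0 Dox counts, a window and no such match. Each is printed 5′ to 3′ on the gene's strand. Capitals mark TGGGAA or its reverse complement TTCCCA, and CACGTG, the Myc E-box, which 6.02% of all windows hold. Matches are descriptions and not sites.
Stra6 (chr9:58134415-58134664, + strand): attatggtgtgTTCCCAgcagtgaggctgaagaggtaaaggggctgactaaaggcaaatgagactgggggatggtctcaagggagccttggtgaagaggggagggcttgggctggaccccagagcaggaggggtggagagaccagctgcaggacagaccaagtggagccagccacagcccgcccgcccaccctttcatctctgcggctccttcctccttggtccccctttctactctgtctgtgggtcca
Dnph1 (chr17:46496539-46496788, + strand): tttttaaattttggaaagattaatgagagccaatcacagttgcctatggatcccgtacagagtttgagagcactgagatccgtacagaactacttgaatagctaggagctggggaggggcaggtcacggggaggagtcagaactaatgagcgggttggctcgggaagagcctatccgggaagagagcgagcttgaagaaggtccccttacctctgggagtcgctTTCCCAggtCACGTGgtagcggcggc
Adm (chr7:110627407-110627656, + strand): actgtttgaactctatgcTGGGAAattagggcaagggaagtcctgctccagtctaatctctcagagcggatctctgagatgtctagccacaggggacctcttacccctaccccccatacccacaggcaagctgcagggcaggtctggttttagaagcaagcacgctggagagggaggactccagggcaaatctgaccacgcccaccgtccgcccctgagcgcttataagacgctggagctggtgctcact
Dctd (chr8:48098842-48099091, + strand): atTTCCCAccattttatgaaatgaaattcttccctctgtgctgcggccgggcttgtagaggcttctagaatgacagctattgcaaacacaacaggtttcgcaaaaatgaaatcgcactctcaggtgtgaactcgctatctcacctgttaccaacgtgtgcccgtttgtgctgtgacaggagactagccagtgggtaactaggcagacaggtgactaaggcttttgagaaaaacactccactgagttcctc
Ncs1 (chr2:31245673-31245922, + strand): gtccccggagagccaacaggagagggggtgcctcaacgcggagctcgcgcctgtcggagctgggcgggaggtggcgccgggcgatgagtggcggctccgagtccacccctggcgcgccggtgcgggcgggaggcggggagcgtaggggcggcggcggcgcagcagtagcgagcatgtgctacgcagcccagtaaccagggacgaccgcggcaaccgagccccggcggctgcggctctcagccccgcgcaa
Fam163b (chr2:27142478-27142727, - strand): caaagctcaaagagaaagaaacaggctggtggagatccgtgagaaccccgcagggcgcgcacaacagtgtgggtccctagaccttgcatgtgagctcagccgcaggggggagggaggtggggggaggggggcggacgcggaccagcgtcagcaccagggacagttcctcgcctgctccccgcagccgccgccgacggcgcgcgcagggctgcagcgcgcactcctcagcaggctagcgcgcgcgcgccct
The match lay 239 bases before the start used for Stra6, 26 before that of Dnph1, 232 before that of Adm and 248 before that of Dctd. Stra6 had 4 listed windows and Dctd 3, and for each the first window that held the match is printed. Dnph1 also held the E-box, 17 bases before its start. The windows differed in base composition: Ncs1 had 34 CpG dinucleotides and Fam163b 25, while Dnph1 had 11, Adm and Dctd 7 each and Stra6 3.

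As a group, the 62 members made up 0.0151% of the Dox counts and 0.188% of the untreated counts, summing to 151 CPM in the Dox and 1881 CPM in the untreated library. Their Dox levels ran from 0 to 21.05 CPM with a median of 0.971 CPM, and their untreated levels from 5.01 to 233 CPM with a median of 13.2 CPM. The median share of the untreated level left in the Dox library was 7.19% and the largest 12.5%. The word lost fits some members better than others. In the Dox library 33 members were under 1 CPM, 6 of them at 0 counts, while 29 were still at 1 CPM or more, 8 of them at 5 CPM or more. Of the 56 members with Dox counts, 20 were 8- to 10-fold lower, 20 between 10- and 20-fold and 16 at least 20-fold. For 37 of the 62 the whole counting interval exceeded 8-fold, and for all 62 it exceeded 4-fold.

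Most members were modestly expressed to begin with. The median untreated level was 5.62 RPKM (CPM per kilobase of gene length) for the members and 17.4 RPKM for the 9122 other genes at 5 CPM or more, and 10 of the 62 members lay above that second value. Ybx3 was highest at 125 RPKM, followed by Shmt1 at 76.7, H2-T3 at 66.4 and Bex1 at 57.9 RPKM. Gene length itself differed little, with a median of 2694 bases for members and 2893 for the others.

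**Figure D2:**
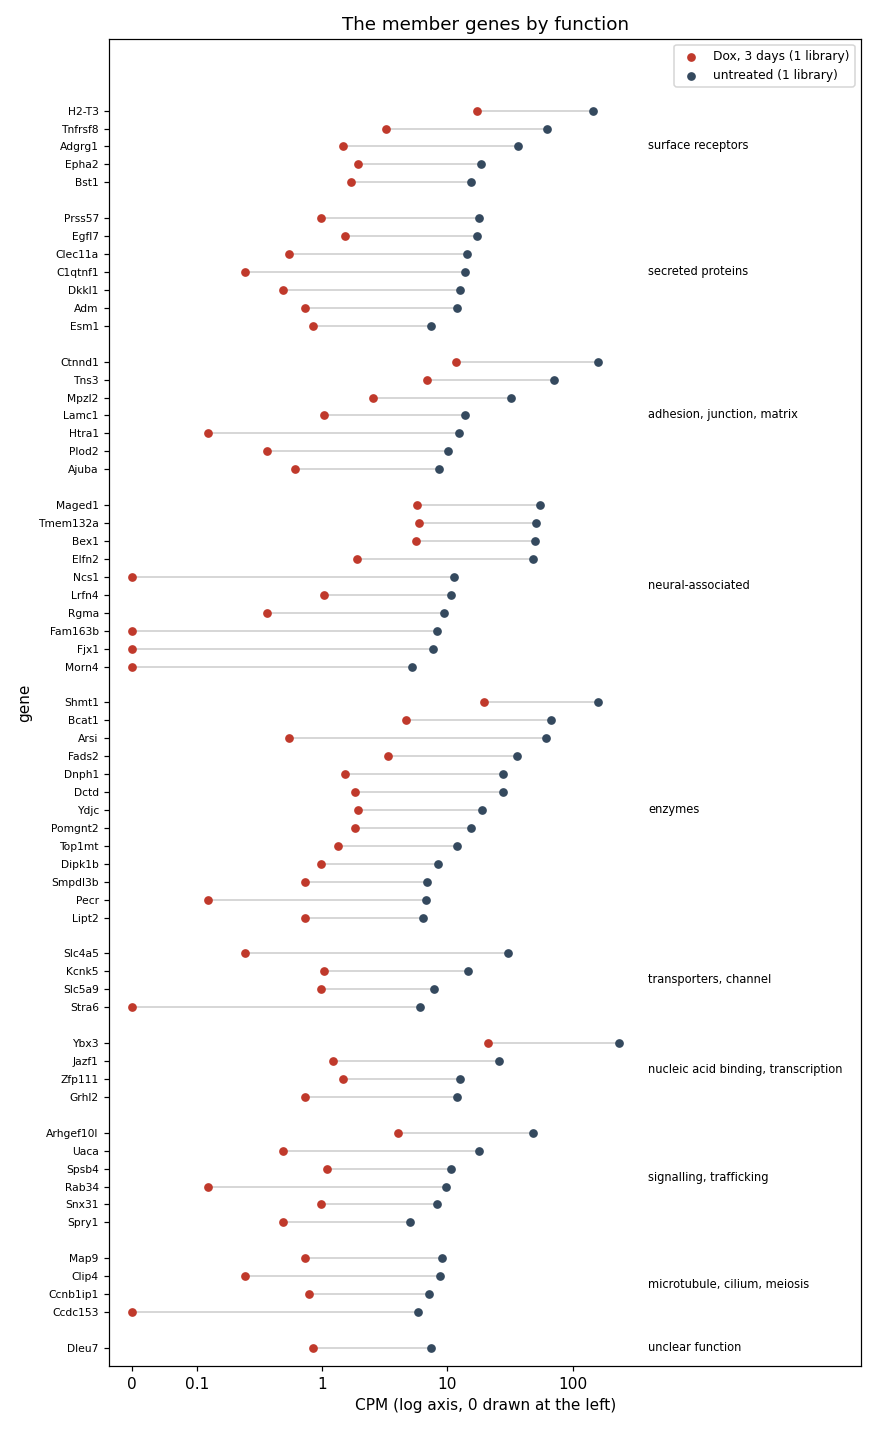
Level of each member named in the text in the Dox library (red) and the untreated library (blue), in CPM on a log axis, grouped by function. Each point is 1 library. Every Dox level plotted lies left of its untreated level by at least 8-fold, as the rule requires, and the 6 points at the left edge are members with 0 Dox counts.

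Receptors at the cell surface came to 5 members, and they are the group nearest to lymphocyte biology. Tnfrsf8 encodes CD30, a receptor of the TNF receptor family known from activated lymphocytes and from lymphomas. It had 53 counts (3.22 CPM) in the Dox library and 1057 counts (62.3 CPM) in the untreated library, 19.4-fold lower (interval 14.7 to 26.1). Adgrg1 encodes GPR56, an adhesion G-protein-coupled receptor of neural progenitors and blood stem cells, and had 24 counts (1.46 CPM) in the Dox library and 626 counts (36.9 CPM) in the untreated library, 25.4-fold lower (interval 16.9 to 39.9). H2-T3 encodes the thymus leukemia antigen, a non-classical MHC class I protein of intestinal epithelium and thymocytes. It had 284 counts (17.2 CPM) in the Dox library and 2453 counts (145 CPM) in the untreated library, 8.40-fold lower (interval 7.42 to 9.53), with reads that other class I genes can share. Epha2, an ephrin receptor tyrosine kinase of epithelia, had 32 counts (1.94 CPM) in the Dox library and 315 counts (18.6 CPM) in the untreated library, 9.57-fold lower (interval 6.64 to 14.2). Bst1, which encodes the ectoenzyme CD157 of myeloid, stromal and early lymphoid cells, was at 1.70 CPM in the Dox and 15.5 CPM in the untreated library. H2-T3 thus kept the highest Dox level of the receptors, and all 5 remained above 1 CPM.

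Secreted proteins made up 7 members, several of them known from endothelium. Egfl7, an EGF-domain protein secreted by endothelial cells, had 25 counts (1.52 CPM) in the Dox library and 294 counts (17.3 CPM) in the untreated library, 11.4-fold lower (interval 7.59 to 18). Esm1, which encodes the endothelial proteoglycan endocan, was at 0.849 CPM in the Dox and 7.43 CPM in the untreated library, and Adm, the gene of the vasodilator peptide adrenomedullin, at 0.728 CPM in the Dox and 12 CPM in the untreated library. The markers that define endothelial cells were at or near 0. Of the other 11 endothelial markers on the list, 0 reached 1 CPM in either library, their summed level was 2.18 CPM in the Dox and 1.30 CPM in the untreated library, and Cdh5, which encodes VE-cadherin, had 2 and 0 counts in the Dox and untreated libraries. Clec11a, a lectin known as stem cell growth factor, had 9 counts (0.546 CPM) in the Dox library and 244 counts (14.4 CPM) in the untreated library, 26.4-fold lower (interval 13.7 to 58.3). C1qtnf1, a C1q/TNF-related protein of fat and vessels, had 4 counts (0.243 CPM) in the Dox library and 234 counts (13.8 CPM) in the untreated library, 56.9-fold lower (interval 21.9 to 210.4). The low Dox counts leave these wide intervals. Prss57, a serine protease of neutrophil granules, had 16 counts (0.971 CPM) in the Dox library and 304 counts (17.9 CPM) in the untreated library, 18.5-fold lower (interval 11.2 to 32.7). The 12 neutrophil and mast cell markers summed to 23.4 CPM in the Dox and 5.84 CPM in the untreated library, and the neutrophil genes Elane and Mpo had 3 and 6 counts in the Dox and 1 and 0 in the untreated library. The part of such cells in the Prss57 values was not tested. Its span overlaps that of Palm, which was at 18.2 CPM in the Dox and 47.3 CPM in the untreated library. Dkkl1, a Dickkopf-related protein known from testis, was at 0.485 CPM in the Dox and 12.6 CPM in the untreated library.

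Adhesion, junction and matrix genes formed a group of 8. Ctnnd1 encodes p120-catenin, which holds cadherins at the surface of epithelial cells. It had 194 counts (11.8 CPM) in the Dox library and 2726 counts (161 CPM) in the untreated library, 13.7-fold lower (interval 11.8 to 15.9), and was the second-highest member by untreated CPM. Tns3, a tensin that couples integrins to actin, had 114 counts (6.92 CPM) in the Dox library and 1201 counts (70.8 CPM) in the untreated library, 10.2-fold lower (interval 8.44 to 12.5). Mpzl2, an immunoglobulin-domain adhesion protein of epithelia including that of the thymus, had 42 counts (2.55 CPM) in the Dox library and 544 counts (32.1 CPM) in the untreated library, 12.6-fold lower (interval 9.19 to 17.7). Lamc1, the gamma 1 chain of the basement membrane protein laminin, had 17 counts (1.03 CPM) in the Dox library and 234 counts (13.8 CPM) in the untreated library, 13.4-fold lower (interval 8.18 to 23.4). The lowest remaining share of the group was that of a secreted enzyme. Htra1, a secreted serine protease, had 2 counts (0.121 CPM) in the Dox library and 210 counts (12.4 CPM) in the untreated library, 102-fold lower (interval 27.9 to 848). Plod2, a lysyl hydroxylase that prepares collagen for cross-linking, was at 0.364 CPM in the Dox and 10.1 CPM in the untreated library, and the junction and Hippo pathway LIM protein gene Ajuba at 0.607 CPM in the Dox and 8.61 CPM in the untreated library. The 8 epithelial markers summed to 1.64 CPM in the Dox and 4.72 CPM in the untreated library, most of the untreated sum from the claudin gene Cldn4 (2 counts in the Dox and 52 in the untreated library), and the keratin genes Krt18, Krt19, Krt5 and Krt14 had 0 counts in both. The 15 fibroblast and stromal markers summed to 59.2 CPM in the Dox and 100.2 CPM in the untreated library, of which Col1a2 made up 32.6 CPM in the Dox and 76.9 CPM in the untreated library, while Col3a1, Dcn and Lum had 0 counts in both. Of the 5 stromal markers with at least 1 CPM in 1 library, 2 were lower by 2-fold or more and 0 higher. They were Col1a2 and Pdgfrb, which had 2 counts in the Dox and 80 in the untreated library. The part of such cells in these members was not tested.

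Genes best known from the nervous system were 10 members, and 4 of them had 0 Dox counts. Ncs1, which encodes neuronal calcium sensor 1, a calcium-binding protein of neurons, had 0 counts (0 CPM) in the Dox library and 192 counts (11.3 CPM) in the untreated library, at least 62.2-fold lower against the floor of 3 counts. Fam163b, a small membrane protein gene of brain, had 0 counts (0 CPM) in the Dox library and 139 counts (8.20 CPM) in the untreated library, at least 45-fold lower against the floor of 3 counts. Fjx1, related to a Golgi kinase of planar polarity in Drosophila, had 0 counts (0 CPM) in the Dox library and 129 counts (7.61 CPM) in the untreated library, at least 41.8-fold lower against the floor of 3 counts. The fourth, Morn4, a MORN repeat protein gene of neurons and retina, had 0 counts (0 CPM) in the Dox library and 88 counts (5.19 CPM) in the untreated library, at least 28.5-fold lower against the floor of 3 counts. A Dox count of 0 allows a level of up to 0.182 CPM, so these genes were below detection at this depth rather than shown to be absent. The bounds leave out the counting error of the untreated library.

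The remaining neural genes kept some transcript. Elfn2, a leucine-rich repeat protein of synapses, had 31 counts (1.88 CPM) in the Dox library and 815 counts (48.1 CPM) in the untreated library, 25.6-fold lower (interval 17.9 to 37.9). Rgma, a guidance molecule that binds neogenin, was at 0.364 CPM in the Dox and 9.43 CPM in the untreated library, and the synaptic adhesion gene Lrfn4 at 1.03 CPM in the Dox and 10.7 CPM in the untreated library. Maged1 and Bex1, X-linked genes whose proteins both bind the p75 neurotrophin receptor, had similar values. Maged1 had 95 counts (5.76 CPM) in the Dox library and 928 counts (54.7 CPM) in the untreated library, 9.49-fold lower (interval 7.68 to 11.9). Bex1 had 93 counts (5.64 CPM) in the Dox library and 850 counts (50.1 CPM) in the untreated library, 8.88-fold lower (interval 7.16 to 11.1). Tmem132a, a membrane protein gene of neural development, had 97 counts (5.88 CPM) in the Dox library and 859 counts (50.6 CPM) in the untreated library, 8.61-fold lower (interval 6.97 to 10.7). These last genes lie near the 8-fold threshold and retained over 5 CPM.

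Enzymes were the largest group, with 13 members. Shmt1, the cytosolic serine hydroxymethyltransferase of folate metabolism, had 325 counts (19.7 CPM) in the Dox library and 2686 counts (158 CPM) in the untreated library, 8.03-fold lower (interval 7.16 to 9.04). Dctd, which makes dUMP for thymidylate synthesis, was at 1.82 CPM in the Dox and 27.8 CPM in the untreated library, and Dnph1, a hydrolase of deoxynucleoside monophosphates that is a known Myc target, at 1.52 CPM in the Dox and 27.8 CPM in the untreated library. Bcat1, the cytosolic branched-chain aminotransferase, had 77 counts (4.67 CPM) in the Dox library and 1133 counts (66.8 CPM) in the untreated library, 14.3-fold lower (interval 11.3 to 18.3). Fads2, the delta-6 desaturase of polyunsaturated fatty acid synthesis, had 55 counts (3.34 CPM) in the Dox library and 606 counts (35.7 CPM) in the untreated library, 10.7-fold lower (interval 8.12 to 14.4). Pecr, a peroxisomal reductase of fatty acyl chains, had 2 counts (0.121 CPM) in the Dox library and 114 counts (6.72 CPM) in the untreated library, 55.4-fold lower (interval 15 to 463). Arsi, an arylsulfatase gene, combined a high untreated level with a very low Dox level: it had 9 counts (0.546 CPM) in the Dox library and 1034 counts (61 CPM) in the untreated library, 112-fold lower (interval 58.6 to 245). The other enzymes, like Shmt1, were near the threshold. Top1mt, the mitochondrial topoisomerase, was at 1.33 CPM in the Dox and 12 CPM in the untreated library, Lipt2, an enzyme of lipoic acid synthesis, at 0.728 CPM in the Dox and 6.37 CPM in the untreated library, and Smpdl3b, a lipid-anchored phosphodiesterase, at 0.728 CPM in the Dox and 6.84 CPM in the untreated library. Pomgnt2, a glycosyltransferase of alpha-dystroglycan, Ydjc, of the carbohydrate deacetylase family, and Dipk1b, a kinase-like protein of the endoplasmic reticulum, kept 11.8%, 10.3% and 11.5% of their untreated level in the Dox library.

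Transporters and channels were 4 members with little else in common. Slc4a5, a sodium bicarbonate cotransporter of choroid plexus and kidney, had 4 counts (0.243 CPM) in the Dox library and 520 counts (30.7 CPM) in the untreated library, 126-fold lower (interval 49.1 to 465), the lowest remaining share of any member that kept Dox counts. Kcnk5, a background potassium channel gene of kidney, had 17 counts (1.03 CPM) in the Dox library and 248 counts (14.6 CPM) in the untreated library, 14.2-fold lower (interval 8.68 to 24.7). Slc5a9, a sodium-dependent sugar transporter of intestine and kidney, had 16 counts (0.971 CPM) in the Dox library and 132 counts (7.78 CPM) in the untreated library, 8.02-fold lower (interval 4.76 to 14.4). Stra6, the cell surface receptor for retinol-binding protein in the retinal pigment epithelium, had 0 counts (0 CPM) in the Dox library and 102 counts (6.01 CPM) in the untreated library, at least 33-fold lower against the floor of 3 counts.

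Nucleic acid-binding proteins and transcription factors were 4 members. Ybx3, a Y-box protein of RNA and DNA known from testis and muscle, was the highest member: it had 347 counts (21 CPM) in the Dox library and 3959 counts (233 CPM) in the untreated library, 11.1-fold lower (interval 9.93 to 12.4). Jazf1, a zinc finger cofactor, had 20 counts (1.21 CPM) in the Dox library and 439 counts (25.9 CPM) in the untreated library, 21.3-fold lower (interval 13.6 to 35.3). Grhl2, a grainyhead factor that maintains epithelial identity, had 12 counts (0.728 CPM) in the Dox library and 201 counts (11.9 CPM) in the untreated library, 16.3-fold lower (interval 9.12 to 32), and the zinc finger gene Zfp111 had 24 counts (1.46 CPM) in the Dox library and 212 counts (12.5 CPM) in the untreated library, 8.59-fold lower (interval 5.62 to 13.7). Of the epithelial markers, the adhesion gene Cdh1 was at 1.15 CPM in the Dox and 0.943 CPM in the untreated library. Epcam was at 0.364 CPM in the Dox and 0.590 CPM in the untreated library. The claudin gene Cldn4, whose counts are given above, was lower in the Dox library, the direction of Grhl2.

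Signalling and trafficking genes were 6 members. Arhgef10l, a guanine nucleotide exchange factor, had 66 counts (4.004 CPM) in the Dox library and 818 counts (48.2 CPM) in the untreated library, 12-fold lower (interval 9.37 to 15.7). Uaca, which encodes the apoptosis-linked protein nucling, had 8 counts (0.485 CPM) in the Dox library and 303 counts (17.9 CPM) in the untreated library, 36.8-fold lower (interval 18.4 to 86). Rab34, a GTPase of cilium formation, had 2 counts (0.121 CPM) in the Dox library and 164 counts (9.67 CPM) in the untreated library, 79.7-fold lower (interval 21.7 to 664). Spsb4, a SOCS-box adaptor of a ubiquitin ligase, had 18 counts (1.09 CPM) in the Dox library and 181 counts (10.7 CPM) in the untreated library, 9.77-fold lower (interval 6.01 to 16.9); Gm16010, a non-coding gene at 0.121 CPM in the Dox and 1.06 CPM in the untreated library, overlaps its span. Snx31, a sorting nexin of urothelium, was at 0.971 CPM in the Dox and 8.25 CPM in the untreated library. Spry1, a feedback inhibitor of receptor tyrosine kinase signalling, was at 0.485 CPM in the Dox and 5.01 CPM in the untreated library, just above the 5 CPM minimum.

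Microtubule, cilium and meiosis genes were 4 members. Ccdc153, a protein of motile cilia, had 0 counts (0 CPM) in the Dox library and 98 counts (5.78 CPM) in the untreated library, at least 31.8-fold lower against the floor of 3 counts. Clip4, a microtubule-binding protein, had 4 counts (0.243 CPM) in the Dox library and 149 counts (8.79 CPM) in the untreated library, 36.2-fold lower (interval 13.8 to 135). Map9, a protein of the spindle and cilia, had 12 counts (0.728 CPM) in the Dox library and 154 counts (9.08 CPM) in the untreated library, 12.5-fold lower (interval 6.94 to 24.7). Ccnb1ip1 encodes HEI10, a ubiquitin ligase of meiotic crossing over, and had 13 counts (0.789 CPM) in the Dox library and 120 counts (7.08 CPM) in the untreated library, 8.97-fold lower (interval 5.05 to 17.3). The last member, Dleu7, is of unclear function and is named for a region deleted in human lymphocytic leukemia. It had 14 counts (0.849 CPM) in the Dox library and 126 counts (7.43 CPM) in the untreated library, 8.75-fold lower (interval 5.02 to 16.5).

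The tissues in which each gene is best known are general background and not from these data, and some genes are counted more than once. Brain or other nervous tissue is among the usual sites of 19 of the 62 members, and epithelia of 15. Testis or ovary is a usual site of 6, endothelium or vessels of 5 and connective or skeletal tissue of 5. These sites are not always the only ones. Maged1, Tmem132a, Dipk1b and Pomgnt2 are listed for brain among other tissues. Shmt1 and Pecr, of liver and kidney, count under epithelia. Blood, marrow or lymphoid cells are among the usual sites of 7, and 2 of these, Tnfrsf8 and H2-T3, are known from T cells or thymocytes. Tns3, Arhgef10l, Jazf1, Uaca, Top1mt, Lipt2 and Spry1 are known from many tissues, and Dctd and Dnph1 from dividing cells. None of them is in these counts. For 5 members no tissue is given. Other genes were not sorted by tissue, so whether these counts differ from those of other genes was not tested.

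**Figure D3:**
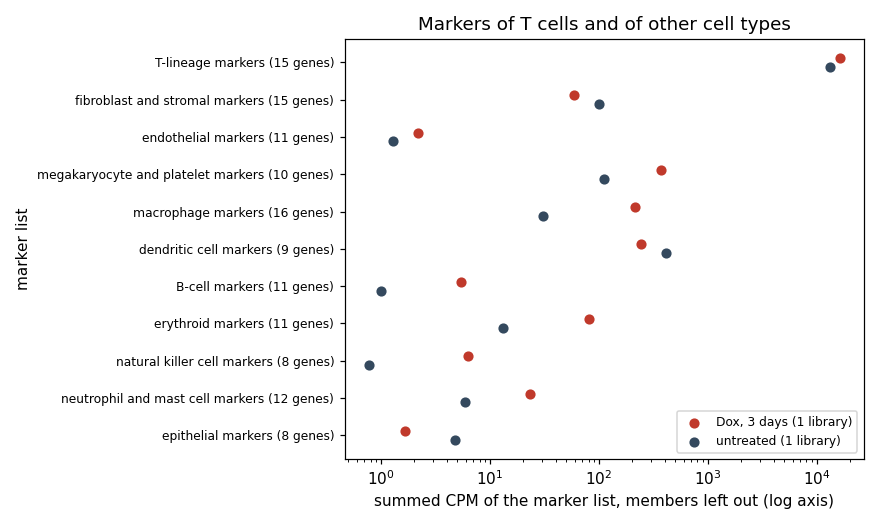
Summed level, in CPM on a log axis, of marker genes of T cells and of other cell types in the Dox library (red) and the untreated library (blue), with the member Egfl7 left out of the endothelial list. T-lineage markers sum to 16234 CPM in the Dox and 13129.6 CPM in the untreated library; endothelial, epithelial and B-cell markers stay under 6 CPM in both.

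The marker lists check the labelled cell type and look for others. All 15 T-lineage markers were detected, summing to 16234 CPM in the Dox and 13129.6 CPM in the untreated library, and 0 of them were lower by 2-fold. Macrophage markers summed to 212 CPM in the Dox and 30.8 CPM in the untreated library, erythroid markers to 80.6 CPM in the Dox and 13 CPM in the untreated library, B-cell markers to 5.46 CPM in the Dox and 1.002 CPM in the untreated library and natural killer cell markers to 6.31 CPM in the Dox and 0.767 CPM in the untreated library. These 4 sums were higher in the Dox library. Dendritic cell markers summed to 241 CPM in the Dox and 407 CPM in the untreated library, of which Ly6d made up 72.5 CPM in the Dox and 293 CPM in the untreated library, and the defining genes Clec9a and Siglech had 129 and 101 counts in the Dox library and 0 in the untreated library. The megakaryocyte list, at 371 CPM in the Dox and 110.02 CPM in the untreated library, consisted almost wholly of the integrin gene Itgb3. The part of these other cells in the members' values was not tested.

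At the edge of the rule, differences were small. Just inside the ratio were Slc5a9 at 8.02-fold, Shmt1 at 8.03, H2-T3 at 8.40, Pomgnt2 at 8.49 and Snx31 at 8.50. Just outside were Zfp185 at 7.90, Stc1 at 7.80, Smyd2 at 7.65, Car12 at 7.58 and Pus7 at 7.48. Above the 5 CPM minimum were Spry1 at 5.01, Morn4 at 5.19 and Ccdc153 at 5.78 CPM in the untreated library. Below it were Gls2 at 4.89, Bex6 at 4.72 and Pdgfrb at 4.72 CPM, genes that had 0, 0 and 2 Dox counts; Bex6 is a relative of the member Bex1.

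Relatives of the members went both ways. For 40 members 85 relatives were listed by hand from their families, leaving out members and genes set aside by name, and 31 of these, from 24 members, reached 5 CPM in the untreated library. Of the 31, 9 differed downward by 2-fold or more and 1 upward, with a median log2 fold of -0.34. The minimum on the untreated level favours lower genes: over the 48 listed relatives with at least 1 CPM in 1 library, 13 were lower and 9 higher by 2-fold or more, with a median of -0.11. Over the 9184 genes at 5 CPM or more untreated, 12.2% were lower and 7.74% higher by that much, with a median of -0.07. Log2 folds here and below are Dox over untreated with a prior count of 2.

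Some families contained members and relatives side by side. Hpcal1, a neuronal calcium sensor relative of Ncs1, was at 173 CPM in the Dox and 128 CPM in the untreated library (log2 fold 0.43). Slc4a7, of the bicarbonate transporter family of Slc4a5, was at 97.4 CPM in the Dox and 78.1 CPM in the untreated library (0.32). Arhgef10, the nearest relative of Arhgef10l, was at 28 CPM in the Dox and 12.5 CPM in the untreated library (1.16) and was the 1 relative at least 2-fold higher among those at 5 CPM or more untreated. Slc4a8, also of the Slc4a5 family but below that minimum, was at 7.83 CPM in the Dox and 2.54 CPM in the untreated library (1.58). Arvcf and Pkp4, p120-catenin relatives of Ctnnd1, had log2 folds of 0.65 and 0.66. In these families the member and its relative differed in opposite directions.

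In other families some relatives were lower too. Shmt2, the mitochondrial counterpart of Shmt1, was at 86.3 CPM in the Dox and 395 CPM in the untreated library (-2.19). Tns1, a tensin like Tns3, was at 3.34 CPM in the Dox and 24.2 CPM in the untreated library (-2.82), and Mpzl1, of the Mpzl2 family, at 1.46 CPM in the Dox and 10.6 CPM in the untreated library (-2.77). Mpzl3, also of the Mpzl2 family, was nearly equal at 5.94 CPM in the Dox and 5.96 CPM in the untreated library (-0.002). Ybx1, the main Y-box protein of most cells, was at 293 CPM in the Dox and 715 CPM in the untreated library (-1.29). Bcat2, the mitochondrial branched-chain aminotransferase, lay within 2-fold at 55.3 CPM in the Dox and 80.1 CPM in the untreated library (-0.53), and so did Bex3 (-0.74) and Top1 (-0.57). Other relatives of Bex1 were below 5 CPM untreated. Of these, Bex4 was at 0.789 CPM in the Dox and 4.95 CPM in the untreated library (-2.48). Bex6, named above, had a log2 fold of -5.34, and Bex2, at 1.30 CPM untreated, one of -0.55.

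**Figure D4:**
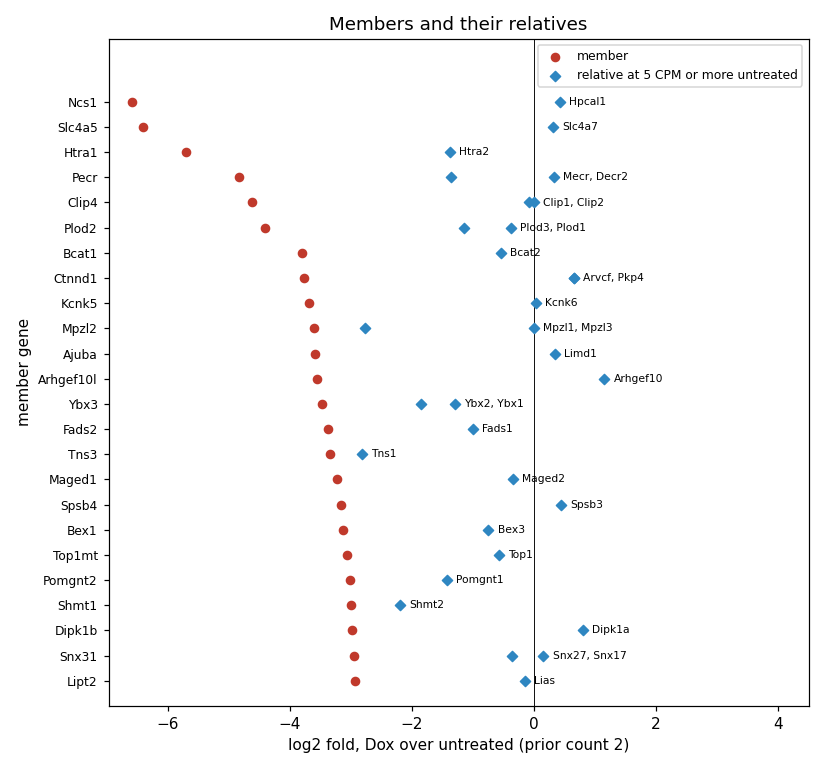
Log2 fold, Dox over untreated, of 24 members (red circles) and of the 31 relatives of their families that reached 5 CPM untreated (blue diamonds, named to the right from lowest to highest). Relatives run from Tns1 at -2.82 to Arhgef10 at 1.16. The log2 fold of Ncs1, which had 0 Dox counts, depends on the prior count.

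The wider gene lists did not share a common direction. The receptor tyrosine kinase, ion channel, cytokine, matrix and Myc-associated lists held 1 member each. The axon guidance, germ cell, thymocyte and Notch lists held 0, so their values describe no member. Among all 12151 genes with at least 1 CPM in 1 library, 13.4% had a log2 fold of -1 or less and 13.1% of 1 or more, with a median of -0.03. Among receptor tyrosine kinases, 6 of 21 kept genes were lower by 2-fold or more and 6 higher by 2-fold or more (median log2 fold 0.19), with Ephb2 at 0.08, Ephb6 at 0.83, the Wnt co-receptor gene Ryk at -1.16, the set-aside gene Ephb4 at -4.97 and the member Epha2 at -3.18. Among ion channel genes, 3 of 30 kept genes were lower by 2-fold or more and 11 higher by 2-fold or more (median log2 fold 0.49); Ano6 had -0.09, the calcium-activated potassium channel gene Kcnn4 0.40 and the member Kcnk5 -3.68. Among cytokines and their receptors, 6 of 50 kept genes were lower by 2-fold or more and 15 higher by 2-fold or more (median log2 fold 0.39), with the common gamma chain Il2rg at 1.07 and the member Tnfrsf8 at -4.23. These lists count the genes set aside by name, of which Ephb4 and Il2ra also met both criteria: Ephb4 had 7 counts in the Dox and 287 in the untreated library, 39.9-fold lower (interval 19.1 to 100.01), and Il2ra 54 counts in the Dox and 1018 in the untreated library. Pdgfrb, just under the minimum, is on the receptor tyrosine kinase list too, at -4.33.

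Neural, matrix and germ cell lists had slightly negative medians. Of axon guidance, synaptic and neuronal adhesion genes, 7 of 28 kept genes were lower by 2-fold or more and 5 higher by 2-fold or more (median log2 fold -0.31). Sema4d, a semaphorin of lymphocytes, was at 199.8 CPM in the Dox and 103 CPM in the untreated library and Nrp1, a semaphorin co-receptor, at 23.1 CPM in the Dox and 63.5 CPM in the untreated library. This list's median was 0.43 when genes with at least 1 count were included, so its sign depends on that filter. For extracellular matrix genes, 7 of 20 kept genes were lower by 2-fold or more and 4 higher by 2-fold or more (median log2 fold -0.36), with Timp2 at 0.18, Col1a2 at -1.23 and the member Lamc1 at -3.60. For germ cell genes, 5 of 13 kept genes were lower by 2-fold or more and 2 higher by 2-fold or more (median log2 fold -0.42); the synaptonemal complex gene Syce2 had -1.03, Ythdc2 -0.38 and Hormad2 -0.69. Of thymocyte stage genes, 6 of 21 kept genes were lower by 2-fold or more and 3 higher by 2-fold or more (median log2 fold 0.08), among them the high mobility group factor gene Tcf7 at 0.08, Dntt at -2.56 and Cd4 at 0.82, and of Notch pathway genes, 6 of 30 kept genes were lower by 2-fold or more and 6 higher by 2-fold or more (median log2 fold 0.17), with Notch1 at -1.18 and Dtx1 at 0.32. Myc-associated growth genes were the exception: 34 of 41 kept genes were lower by 2-fold or more and 0 higher by 2-fold or more (median log2 fold -1.90), with the nucleolar genes Ncl at -1.65 and Npm1 at -1.92 and the lactate dehydrogenase gene Ldha at -0.86; the member Shmt1 is on this list.

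Members were spread over 19 chromosomes. Chromosome 7 held 8 (12.9%, against 7.45% of the other genes at 5 CPM or more) and chromosome 9 held 7 (11.3%, against 5.71%). In 7 cases consecutive members lay within 1 Mb of each other, a count that was not made for other genes. The closest were Egfl7 (chr2:26581083-26592682) and Dipk1b (chr2:26628457-26636497), 35.8 kb apart beside Notch1 on chromosome 2. Between them, Agpat2, an enzyme of phospholipid synthesis, was at 7.70 CPM in the Dox and 10.6 CPM in the untreated library. Notch1 itself was at 109 CPM in the Dox and 247 CPM in the untreated library. On each side of each member the next protein-coding gene with at least 1 CPM in 1 library was taken, Agpat2 being counted for both Egfl7 and Dipk1b. The gap reached 5370015 bases, between Dctd and Aga. Of these 124 entries, 17.7% were lower and 9.68% higher by 2-fold or more, with 0 members among them. Next to the other genes at 5 CPM or more, the shares were 13.1% and 12.4%, and 97 of 18211 entries were members. At so low a share, 0 among 124 entries is no result about the members. Some adjacent genes did differ in the direction of the member. Ncald, a calcium sensor gene beside Grhl2, was at 2.31 CPM in the Dox and 15.1 CPM in the untreated library (log2 fold -2.65), and Tfpi, beside Ctnnd1, at 8.19 CPM in the Dox and 44.6 CPM in the untreated library (-2.43). Adgrg3, beside its relative Adgrg1, was at 0.728 CPM in the Dox and 3.66 CPM in the untreated library (-2.16).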

How the data were processed

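RNA was sequenced from sorted ALL211 leukemia cells, 1 library of Dox-treated and 1 of untreated mice. The authors deposited whole-number counts of reads for each Entrez gene. CASAVA 1.8.2, featureCounts and the mm10 build are listed per the submitters' processing notes. The aligner, strand setting and annotation were not given in the sources used here. Overlapping genes and near-identical copies are therefore uncertain, and 5 members overlap another gene of at least 1 CPM (Lrfn4, Prss57, Spsb4, Tmem132a and Ydjc). The gene length column is deposited with the counts and was used for RPKM. Sample tables and the series table agreed in every count (0 genes differed). Symbols, biotypes and coordinates came from RefSeq GRCm38.p6 for 25275 of 27179 genes; 1904 without a symbol stayed in the totals. CPM was count over library total.

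With 1 library per condition the edgeR quasi-likelihood model of the design could not be fitted, and edgeR 4.0.16 and DESeq2 1.42.0 (R 4.3.3) served only for alternative scaling. Clopper-Pearson 95% intervals were computed on the binomial share of each gene's 2 counts. A count of 0 was bounded by a floor of 3 counts per library, 0.182 CPM in the Dox and 0.177 CPM in the untreated library. PCR copies are not independent molecules, so intervals and floors cover counting error only. Lists used genes with at least 1 CPM in 1 library. The rule for members was set, and lists, function groups, usual tissues and relatives were chosen by hand, with earlier results of these data known. Named genes, by rule, are the members (1 member and 1 gene list are not reported here), with counts and intervals for the highest, the lowest in remaining share, those on a list and up to 4 per function group; up to 3 abundant genes per list; and, beyond the rule, relatives, markers and adjacent genes named after their values were seen. Calculations used Python 3.11.15, numpy 2.4.6, pandas 2.3.3, scipy 1.17.1 and matplotlib 3.10.9, and were tested on simulated counts.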

Additional observations from a re-analysis of the deposited data

How the results depend on the processing

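The number of members was 59 with TMM and with upper quartile scaling, which left out Shmt1, Slc5a9 and Spry1, and 62 with DESeq2 scaling, with any biotype and, chosen after seeing the data, with totals that leave out markers of other cell types. It was 63 with the untreated library thinned to the Dox total, which added Zfp185, and 63 without mitochondrial, ribosomal protein and haemoglobin genes in the totals, and 73 with the set-aside genes kept. It moved with the rule's own limits: 144 at 1 CPM or more untreated, 41 at 10 CPM, 211 at 4-fold, 27 at 16-fold, and 37 where the counting interval had to lie wholly beyond 8-fold. The ratios of the members with Dox counts changed by a factor between 0.972 and 1.02 over scaling and thinning, within their counting intervals; those at 0 Dox counts stay at 0 under any scaling. The thymocyte list median was 0.20 at 5 CPM or more, against 0.08. The median of the axon guidance list was 0.43 with all genes of at least 1 count, against -0.31, and those of the stromal and endothelial markers were -0.58 and 0.31, against 0.12 and -3.42; the last rested on Egfl7 alone. The megakaryocyte median was 0.59 with that filter, against 1.76, and the neutrophil and mast cell median 3.81 at 5 CPM or more, against 1.36. The filter admits more genes at few counts. Of 144 list medians under alternatives, 138 stayed within a tolerance taken from the interval widths of the single genes of each list. That tolerance is not the counting error of a median, and it was wide for short lists. For B-cell markers it was 3.40 log2 units. Their median of 4.19 became 1.42 with all genes of at least 1 count and still lay within it. No paired analysis was possible because each group has 1 library. With 1 library per condition, no replicate could be left out, and mice, sorting gate and treatment cannot be told apart. A Dox count of 0 allows a level of up to 0.182 CPM; ratios from 1 to 3 Dox counts (Htra1, Rab34 and Pecr) have wide intervals.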
